A study of Mus musculus with 2 samples.

Results

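Natural killer (NK) cells were examined in single-cell RNA libraries of 2 mouse pancreatic tumours, 1 per group. They were chosen by their own counts: at least 2 unique molecular identifiers (UMIs, 1 per captured RNA molecule) of Ncr1, Klrb1c and Eomes together, none of the CD3 chains Cd3e, Cd3d and Cd3g, none of the B cell gene Cd79a, complement genes C1qa, C1qb and C1qc under 0.05% of UMIs, S100a8 and S100a9 under 0.4% of UMIs, and at most 2 UMIs of the keratins Krt8 and Krt18. This left 69 NK cells of 24160 cells, 24 of 11713 cells in that labelled KPC-shV and 45 of 12447 cells in that labelled KPC-shZEB1. The values of the selecting genes are given as a description. Klra4 and Klra8, 2 genes of Ly49 receptors that the selection did not use, lay between 274 and 417 CPM (UMIs of the gene per 1000000 UMIs of its class) in the NK cells of either library and at 1.11 CPM or less in the T cells, which were cells with at least 2 UMIs of the CD3 chains under the same exclusions.

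NK cells are innate lymphocytes that kill stressed or transformed cells without a rearranged antigen receptor. Their response follows the balance of activating receptors, which signal through adaptors such as DAP12 (Tyrobp) and the Fc receptor gamma chain (Fcer1g), and inhibitory receptors that bind class I histocompatibility molecules. Killing uses perforin and granzymes released from granules, and XCL1 and CCL5 draw dendritic cells and other leukocytes into a tumour. Tissues also hold type 1 innate lymphoid cells (ILC1), which share Ncr1 and Klrb1c with NK cells but typically have integrin alpha 1 (Itga1) in place of integrin alpha 2 (Itga2) and Eomes.

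KPC cells are a mouse pancreatic cancer line. The cells labelled KPC-shV carried a control vector and those labelled KPC-shZEB1 a short hairpin RNA directed at Zeb1, a transcription factor of epithelial-mesenchymal transition. Both were grown in the pancreas of mice, so that the lymphocytes described are those of the host. The labels name orthotopic allografts without the mouse strain, age or a drug. The study's text states that the tumours sequenced as single cells came from mice given gemcitabine. It ties these tumours to an experiment that it describes as done in immunocompetent mice. Its methods list C57BL/6J, BALB/c and immunodeficient NSG mice without naming the strain of these 2 tumours. Mouse, tumour, dissociation, library and group form 1 split, so a difference between the libraries cannot be told apart from a difference between 2 tumours.

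Zeb1 RNA in tumour cells was 164 CPM under the label KPC-shV and 195 CPM under the label KPC-shZEB1, with a ratio of 1.19 (1.09 to 1.29). These 420 and 275 tumour cells had at least 10 UMIs of Krt8 and Krt18 together and none of the leukocyte gene Ptprc. They were 3.59% and 2.21% of kept cells, and tumour cells with few keratin UMIs were not covered. In the cells so chosen RNA of the targeted gene was thus not lower under the knockdown label. The study shows knockdown efficiency of Zeb1 in KPC cells and Zeb1 staining of tumour tissue, neither of which was measured here. The group names below stand for the labels of the libraries. From 25865 barcodes, those under 500 genes, under 1000 or over 60000 UMIs, or over 15% mitochondrial UMIs were dropped. Between the libraries 46 barcodes were shared, 40 of them kept and none an NK cell in both. Values in parentheses after shares and ratios are exact 95% intervals that cover counting error only, because 1 tumour per group gives no replicate and no test.

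The sequence just upstream of 4 genes that the results turn on shows what NK cell genes do and do not share in their DNA. The windows hold the 250 bases before the start of Ncr1 (an activating receptor and the NK marker with the widest use), Gzma and Gzmc (granzymes) and Klra8 (the Ly49H receptor), from RefSeq on GRCm38.p6, written 5′ to 3′ on the gene's strand. Capitals mark TGTGGT or its reverse complement ACCACA, the core letters that RUNX factors bind.
Ncr1 (chr7:4337465-4337714, plus strand): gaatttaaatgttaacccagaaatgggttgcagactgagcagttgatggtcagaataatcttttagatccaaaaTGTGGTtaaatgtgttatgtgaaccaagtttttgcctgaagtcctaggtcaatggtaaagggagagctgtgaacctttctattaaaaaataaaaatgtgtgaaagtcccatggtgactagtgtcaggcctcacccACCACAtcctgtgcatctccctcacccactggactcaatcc
Gzma (chr13:113100982-113101231, minus strand): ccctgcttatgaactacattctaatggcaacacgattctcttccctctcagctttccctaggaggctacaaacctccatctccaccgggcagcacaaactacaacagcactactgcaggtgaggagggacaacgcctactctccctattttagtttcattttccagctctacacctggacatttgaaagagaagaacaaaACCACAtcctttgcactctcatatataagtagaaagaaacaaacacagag
Gzmc (chr14:56234658-56234907, minus strand): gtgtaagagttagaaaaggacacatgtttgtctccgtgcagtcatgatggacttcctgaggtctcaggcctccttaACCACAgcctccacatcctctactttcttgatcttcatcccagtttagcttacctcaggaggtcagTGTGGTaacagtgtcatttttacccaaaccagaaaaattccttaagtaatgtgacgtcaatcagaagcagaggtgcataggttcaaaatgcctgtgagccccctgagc
Klra8 (chr6:130129899-130130148, minus strand): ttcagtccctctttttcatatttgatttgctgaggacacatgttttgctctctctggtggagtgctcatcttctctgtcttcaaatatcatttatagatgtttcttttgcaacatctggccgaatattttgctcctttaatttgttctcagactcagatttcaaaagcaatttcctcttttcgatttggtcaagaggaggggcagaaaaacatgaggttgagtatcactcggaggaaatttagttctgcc
Ncr1 held 2 matches, Gzma 1, Gzmc 2 and Klra8 none. Among all 27025 windows of this length 14.2% held at least 1 match on either strand, against 12 of 19 windows of cytolytic genes (63.2%), namely Gzma, Gzmb, Gzmc, Gzmd, Gzme, Gzmf, Gzmg, Gzmm, Prf1, Nkg7, Cst7 and Lamp1. Granzymes C to G are neighbouring paralogs with related sequence, so they are not separate instances. Activating receptors held it in 5 of 14 windows, inhibitory receptors in 6 of 16, and 3 of the 10 windows found for the 15 genes with the largest ratio of NK to T cells. The T-box octamer AGGTGTGA, bound by Eomes and T-bet, was in 1.14% of all windows and in 1 of 19 cytolytic ones, that of Nkg7. The motif was chosen after several had been looked at, and a match is a description of letters and not of a bound site. On the mm10 annotation the genes themselves span chr7:4337724-4345164 for Ncr1, chr13:113093825-113100981 for Gzma, chr14:56231441-56234656 for Gzmc and chr6:130115226-130129898 for Klra8.

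NK cells were rare in both tumours, with shares of kept cells of 0.205% (0.131 to 0.305) and 0.362% (0.264 to 0.483), a ratio of 1.76 (1.05 to 3.03). The first value of each pair is that of the library labelled KPC-shV and ratios divide the second by the first. Neutrophils (at least 1% of UMIs from S100a8 and S100a9, with Csf3r and no CD3) made up 31.4% and 11.9% of cells. The non-neutrophils were set apart by another limit, as the 6205 and 9670 cells with S100a8 and S100a9 under 0.4% of UMIs. Among these non-neutrophils the NK shares were 0.387% (0.248 to 0.575) and 0.465% (0.34 to 0.622), a ratio of 1.2 (0.718 to 2.06). Among NK and T cells together the NK shares were 7.89% (5.12 to 11.5) and 11.7% (8.7 to 15.4), a ratio of 1.49 (0.888 to 2.55). The intervals of the last 2 ratios include 1.

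The exclusion limits met the libraries unequally. Before them, 53 and 152 cells had 2 NK marker UMIs and no CD3, and the C1q limit was failed by 8 (15.1%) and 91 (59.9%), while the keratin limit was failed by 22 (41.5%) and 42 (27.6%). Among T cells, 8.75% and 63.2% of candidates failed the C1q limit. C1q RNA comes from macrophages, and its median in NK candidates was 0.0267% and 0.0590% of UMIs. A wider gate, with C1q and keratins each allowed up to 0.2% of UMIs, held 41 and 127 NK cells. In the wider gate the NK shares of kept cells were 0.35% (0.251 to 0.475) and 1.02% (0.851 to 1.21), a ratio of 2.91 (2.04 to 4.25), and the shares of NK and T cells were 9.3% (6.75 to 12.4) and 9.69% (8.14 to 11.4), a ratio of 1.04 (0.728 to 1.52). Before any exclusion the shares of kept cells were 0.452% (0.339 to 0.591) and 1.22% (1.04 to 1.43), a ratio of 2.7 (1.96 to 3.76). The library labelled KPC-shZEB1 thus held the larger NK share of all cells in each of these gates, with ratios between 1.76 and 2.91. Other settings of the gate gave lower ratios, down to 1.18 with T cell receptor constant regions required to be 0. The ratios of the share among NK and T cells had intervals that include 1. The part of the C1q limit in these ratios was not tested.

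**Figure D1:**
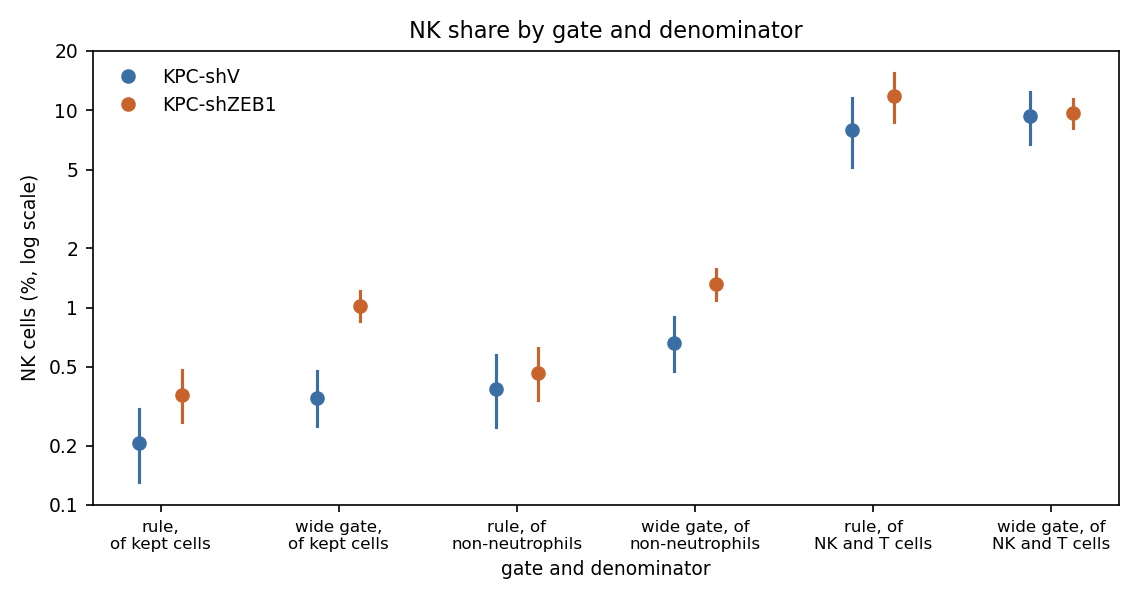
Share of NK cells (%, log scale) by gate and denominator, points with exact 95% intervals, for the libraries labelled KPC-shV (24 NK cells by the rule, 41 in the wider gate) and KPC-shZEB1 (45 and 127). Of kept cells the shares are 0.205% and 0.362% by the rule, with overlapping intervals, and 0.35% and 1.02% in the wider gate, with intervals that lie apart, while the shares of NK and T cells overlap.

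Genes that the selection did not use were set beside the label of NK cells. They were known as its markers from earlier results of these data, so their values are a description and not a check. Itga2 (integrin alpha 2, the DX5 antigen), Klra4 or Klra8 was found in 17 of 24 NK cells (70.8%, 48.9 to 87.4) and 33 of 45 (73.3%, 58.1 to 85.4), against 10.7% and 10.1% of T cells, 9.83% and 9.33% of B cells and 5.03% and 7.42% of neutrophils. Tumour cells also held Itga2, at 216 and 214 CPM. Klra4 or Klra8 was in 11 of 24 (45.8%) and 26 of 45 (57.8%) NK cells. The selecting genes were at 320.1 against 9.31 CPM in KPC-shV and 229.9 against 10.0 CPM in KPC-shZEB1 for Ncr1 (NK cells against T cells), 287 against 23.3 CPM in KPC-shV and 272 against 24.4 CPM in KPC-shZEB1 for Klrb1c (NK1.1), and 189 against 25.0 CPM in KPC-shV and 233 against 22.2 CPM in KPC-shZEB1 for Eomes, a T-box factor of NK maturation. Median UMIs per cell were 5602.5 and 5492 in NK cells and 5207 and 4608.5 in T cells. Summed over the NK cells the depth was 153100 and 282749 UMIs, so that 1 UMI was 6.53 and 3.54 CPM.

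At the threshold, 8 and 12 cells had exactly 1 NK marker UMI and stayed outside, 4 and 11 had exactly 2, and 16 and 23 had 4 or more. Nkg7, a granule membrane protein of killer lymphocytes, was in 25% and 33.3% of the cells just outside and in 4 of 4 and 10 of 11 (90.9%) of those just inside. Itga2, Klra4 or Klra8 was in 25% of cells with 1 UMI, 50% with 2, 25% with 3 and 87.5% with 4 or more in KPC-shV, and in 8.33%, 45.5%, 81.8% and 82.6% in KPC-shZEB1. In KPC-shV these genes thus showed no step at the threshold.

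Markers of other cells were counted in the NK cells as whole lists. Of 14 T cell genes 8 had a UMI in either library, with a summed level of 621 and 591 CPM against 3810.1 and 3824 CPM in T cells, and Cd4, Cd8b1 and Cd6 were at 0 beside the CD3 chains. Trac, the constant region of the alpha chain, was at 19.6 against 316 CPM in KPC-shV and 24.8 against 287 CPM in KPC-shZEB1, and Trbc1, of the beta chain, at 314 against 379.6 CPM in KPC-shV and 329 against 424 CPM in KPC-shZEB1, in 17 of 24 and 35 of 45 NK cells. T cell receptor beta RNA was therefore frequent in these cells while alpha chain RNA was rare. Of 6 genes of group 2 innate lymphoid cells Il1rl1, Il13, Il5 and Il17rb were at 0 in both libraries, while Gata3 and Arg1 had UMIs, and the list summed to 45.7 and 113 CPM in NK cells against 229 and 193 CPM in T cells, with a UMI in 5 of 24 and 20 of 45 NK cells. Of the group 3 list Il22 was at 0, Ccr6 had 1 UMI in either library, Il23r 0 and 2 and Il17a 0 and 1, and the list summed to 6.53 and 14.1 CPM against 256 and 129 CPM. The macrophage list, with all 8 genes detected, summed to 849 and 2401 CPM in NK cells and 769.6 and 1981 CPM in T cells, the neutrophil list to 1352 and 767 CPM against 1296 and 632 CPM, and the acinar list to 39.2 and 336 CPM against 47.7 and 363 CPM. The macrophage and acinar sums were higher and the neutrophil sum lower in the library labelled KPC-shZEB1, in NK and T cells alike. The fibroblast list summed to 503 and 523 CPM in NK cells and 1997 and 552 CPM in T cells.

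**Figure D2:**
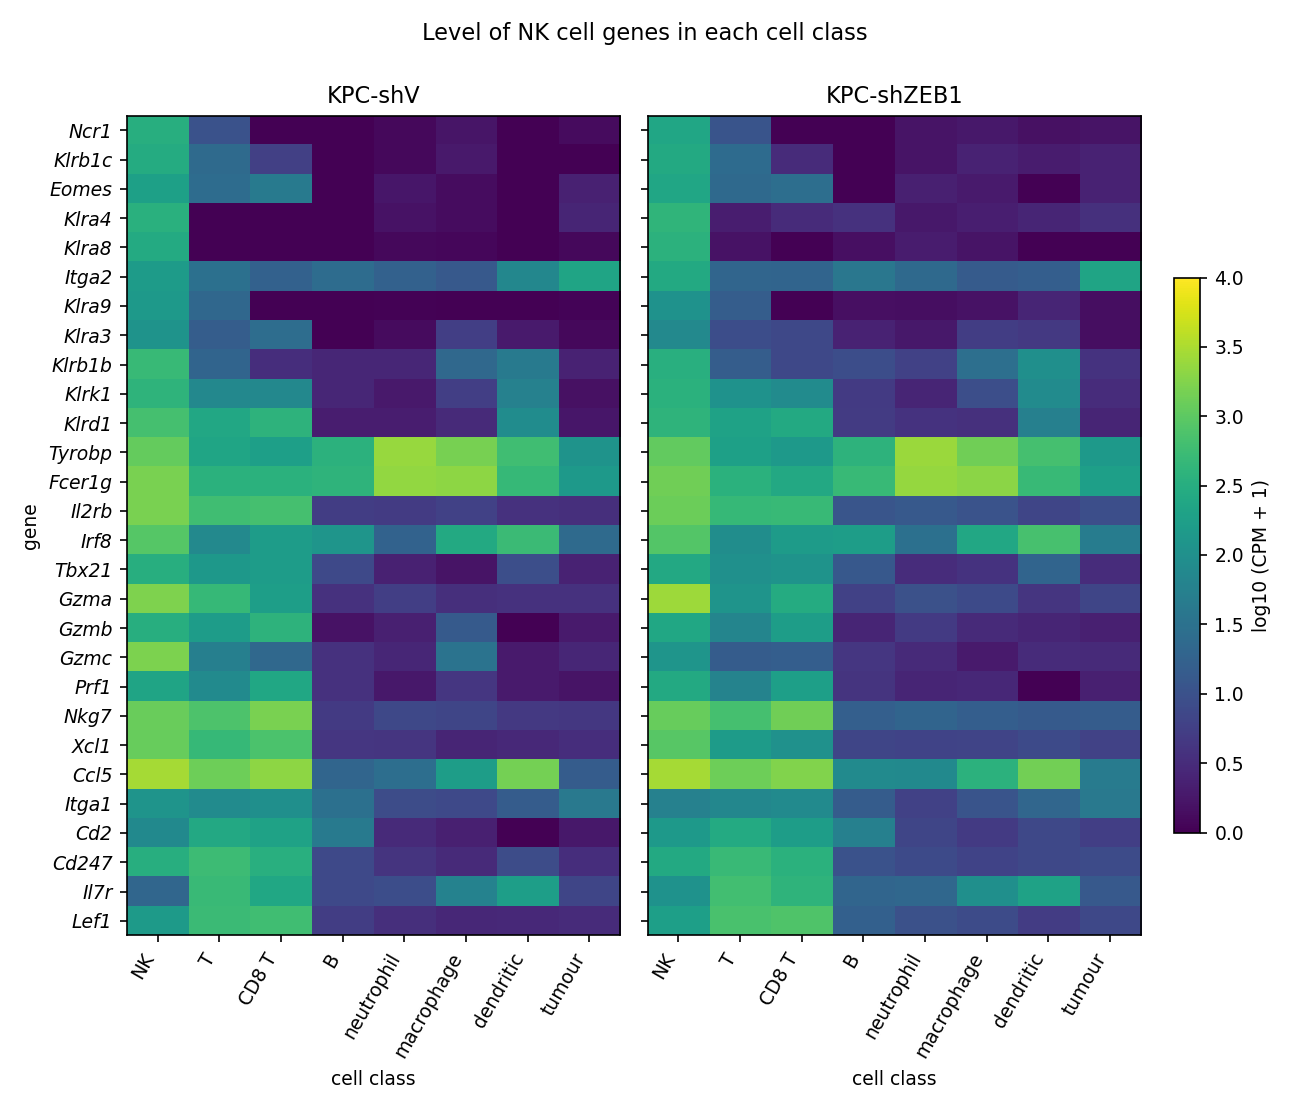
Level of NK cell genes (rows) in each cell class (columns) of either library, named by its label, as log10 of CPM plus 1 from UMIs summed over the class. Klra4 reaches 346 and 417 CPM in NK cells and 0 and 1.11 CPM in T cells, and Gzmc differs between the NK cells of the libraries, 1607 and 120 CPM.

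Against T cells of the same library, NK cells had 120 of 7934 genes (1.51%) at least 2-fold higher in both libraries and 211 (2.66%) at least 2-fold lower, among genes with at least 50 UMIs and with 10 CPM added to both levels. The gene-wide median of the log2 ratio was -0.05 and -0.02. Called here means past 2-fold in both libraries, with no test. The 15 largest ratios were those of Klra4, Klra8, Eya1, Klrb1b, Irf8, Angpt1, Car2, Adamts14, Clnk, Gzmc, Klri2, Klra9, Tyrobp, Klra3 and Aoah.

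Among activating receptors and their adaptors 7 of the 14 genes compared were called higher and none lower, with median log2 ratios of 1.03 and 1.09. The 7 include Klra4 and Klra8, which were known as markers from earlier results of these data. Over all genes 1.51% were called higher and 2.66% lower, and these shares stand beside each list counted below against T cells. Klra4 (Ly49D, which pairs with DAP12) had 0, 0 and 17 UMIs per NK cell (lowest, median and highest) in KPC-shV and 0, 0 and 17 in KPC-shZEB1, and the ratio to T cells was at least 198 and 376 (102 to 3138). Klra8 (Ly49H, which recognises a cytomegalovirus protein in C57BL/6 mice) had 0, 0 and 16 UMIs per NK cell (lowest, median and highest) in KPC-shV and 0, 0 and 17 in KPC-shZEB1, and the ratio was at least 157 and 656 (115 to 26152). The Klra genes are close paralogs that share sequence, so the split of reads among them is uncertain. Klrk1 (NKG2D, a receptor of stress ligands) was at 398 against 72.8 CPM in KPC-shV and 361 against 107 CPM in KPC-shZEB1, with ratios of 5.48 (3.96 to 7.49) and 3.37 (2.62 to 4.3). It was found in 24 of 24 and 36 of 45 NK cells.

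The adaptors Tyrobp and Fcer1g were found in nearly every NK cell. Tyrobp had 2, 7 and 14 UMIs per NK cell (lowest, median and highest) in KPC-shV and 0, 6 and 20 in KPC-shZEB1. Its level was 1117 against 223 CPM in KPC-shV and 1086 against 189 CPM in KPC-shZEB1, with ratios of 5.01 (4.16 to 6.01) and 5.73 (4.9 to 6.71). Fcer1g was at 1548 against 363 CPM in KPC-shV and 1379 against 358 CPM in KPC-shZEB1, with ratios of 4.27 (3.66 to 4.96) and 3.85 (3.39 to 4.37), and every NK cell of both libraries had it. The ratios to T cells were 5.37 (3.07 to 9.1) and 4.15 (2.48 to 6.83) for Cd244a (2B4) and 3.31 (2.24 to 4.78) and 2.22 (1.54 to 3.16) for Klrc2 (NKG2C), so that both were called higher. The other adaptors differed in direction: Hcst (DAP10) was at 248 against 177 CPM in KPC-shV and 212 against 163 CPM in KPC-shZEB1, and Cd247 (the CD3 zeta chain, shared by NK and T cell receptors) at 327 against 557 CPM in KPC-shV and 272 against 512 CPM in KPC-shZEB1, with ratios of 0.586 (0.432 to 0.779) and 0.532 (0.416 to 0.672). Cd247 was below its T cell level in both libraries but past 2-fold in neither.

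Among inhibitory receptors 4 of 18 genes were called higher and 4 lower, with median log2 ratios of 0.02 and 0.16. The higher ones were Klrb1b (NKR-P1B, which binds Clr-b) and the Ly49 genes Klra3, Klra7 and Klra9. Klrb1b was at 496 against 18.6 CPM in KPC-shV and 329 against 13.9 CPM in KPC-shZEB1, with ratios of 26.6 (17.4 to 41.6) and 23.7 (15.1 to 38.5), in 13 of 24 and 28 of 45 NK cells. The lower ones were the T cell checkpoints Ctla4, Pdcd1, Lag3 and Havcr2. Ctla4 was at 105 against 496 CPM in KPC-shV and 103 against 423 CPM in KPC-shZEB1, with ratios of 0.211 (0.12 to 0.344) and 0.242 (0.161 to 0.351), and Pdcd1 had 1 and 3 UMIs in NK cells, with ratios of 0.0488 (0.00123 to 0.275) and 0.0816 (0.0167 to 0.242). The receptor pair Klrd1 (CD94) and Klrc1 (NKG2A), which binds Qa-1, had ratios of 2.59 (2.06 to 3.22) and 2.01 (1.61 to 2.48) for Klrd1 and 2.84 (1.94 to 4.08) and 1.32 (0.889 to 1.91) for Klrc1. Tigit, a checkpoint that binds poliovirus receptor, had 2 and 20 UMIs in NK cells and ratios of 0.197 (0.0236 to 0.728) and 1.04 (0.611 to 1.67).

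Granzyme A stood above the T cell level in both libraries. Of 14 cytolytic genes 5 were called higher (Gzma, Gzmc, Prf1, Serpinb9 and Serpinb6b) and 1 lower (Gzmk, at 0 UMIs in all NK cells), with median log2 ratios of 0.95 and 0.98. The call of Gzmc rested in KPC-shZEB1 on 1 cell with 32 of 34 UMIs, and its log2 ratio to T cells of 3.60 became 2.14 without the cells that Scrublet, a doublet caller, marked and -0.72 with the T cell receptor constant regions at 0. Gzma had 0, 2 and 49 UMIs per NK cell (lowest, median and highest) in KPC-shV and 0, 12 and 90 in KPC-shZEB1, and 14 of 24 and 34 of 45 NK cells had it. Its level was 1666 against 480.3 CPM in KPC-shV and 2550.0 against 118 CPM in KPC-shZEB1, with ratios of 3.47 (3.0 to 4.0) and 21.6 (18.5 to 25.2). The larger second ratio went with a T cell level that had a ratio of 0.246 between the libraries, while the NK level had a ratio of 1.53 (1.33 to 1.77). That T cell level came from few cells, 23 of 280 and 23 of 338. The CD8 T cells among them did not share the lower level, with Gzma at 176 CPM (3 of 51 cells) and 292 CPM (10 of 72 cells). In B cells and neutrophils Gzma was in 1.11% to 2.64% of cells.

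Perforin was called higher than in T cells and granzyme B was not. Prf1 (perforin, which opens the target membrane) was at 216 against 82.1 CPM in KPC-shV and 269 against 61.1 CPM in KPC-shZEB1, with ratios of 2.63 (1.74 to 3.86) and 4.4 (3.24 to 5.95), in 16 of 24 and 29 of 45 NK cells. Gzmb was at 320.1 against 162 CPM in KPC-shV and 237 against 64.4 CPM in KPC-shZEB1, with ratios of 1.97 (1.42 to 2.68) and 3.68 (2.68 to 5.01), short of 2-fold in the first library. Against CD8 T cells alone (51 and 72 cells) Gzmb stood at 379 and 167 CPM in CD8 T cells, and Nkg7 at 1547 and 1334 CPM against 1202 and 1167 CPM in NK cells. NK cells thus did not hold more Nkg7 than CD8 T cells. Serpinb9 and Serpinb6b, inhibitors that shield killer cells from granzymes, had ratios of 3.81 (3.07 to 4.71) and 3.24 (2.71 to 3.88) for Serpinb9 and 3.26 (2.48 to 4.25) and 2.93 (2.35 to 3.65) for Serpinb6b. Fasl, the death ligand, had ratios of 2.4 (1.56 to 3.59) and 1.91 (1.32 to 2.71).

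Of 14 secreted factors 2 were called higher and 1 lower, with median log2 ratios of -0.34 and -0.08. Ccl5 had 0, 6 and 103 UMIs per NK cell (lowest, median and highest) in KPC-shV and 0, 13 and 76 in KPC-shZEB1, at 2867 against 1320.3 CPM in KPC-shV and 2939 against 1317 CPM in KPC-shZEB1, with ratios of 2.17 (1.96 to 2.41) and 2.23 (2.06 to 2.42). Xcl1, the ligand of XCR1 on cross-presenting dendritic cells, was at 1176 against 483 CPM in KPC-shV and 923 against 158 CPM in KPC-shZEB1, with ratios of 2.43 (2.06 to 2.86) and 5.85 (4.93 to 6.95), in 16 of 24 and 33 of 45 NK cells. Ifng, the cytokine by which NK cells act on macrophages and tumour cells, did not stand above T cells: it was at 78.4 against 108 CPM in KPC-shV and 31.8 against 119 CPM in KPC-shZEB1, with ratios of 0.724 (0.367 to 1.29) and 0.267 (0.12 to 0.516), in 8 of 24 and 9 of 45 NK cells. Areg, an epidermal growth factor receptor ligand, was the gene called lower, with ratios of 0.401 (0.217 to 0.68) and 0.189 (0.0809 to 0.379). Tgfb1 had ratios of 1.95 (1.47 to 2.56) and 3.01 (2.5 to 3.6), above T cells in both libraries and past 2-fold in the second.

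**Figure D3:**
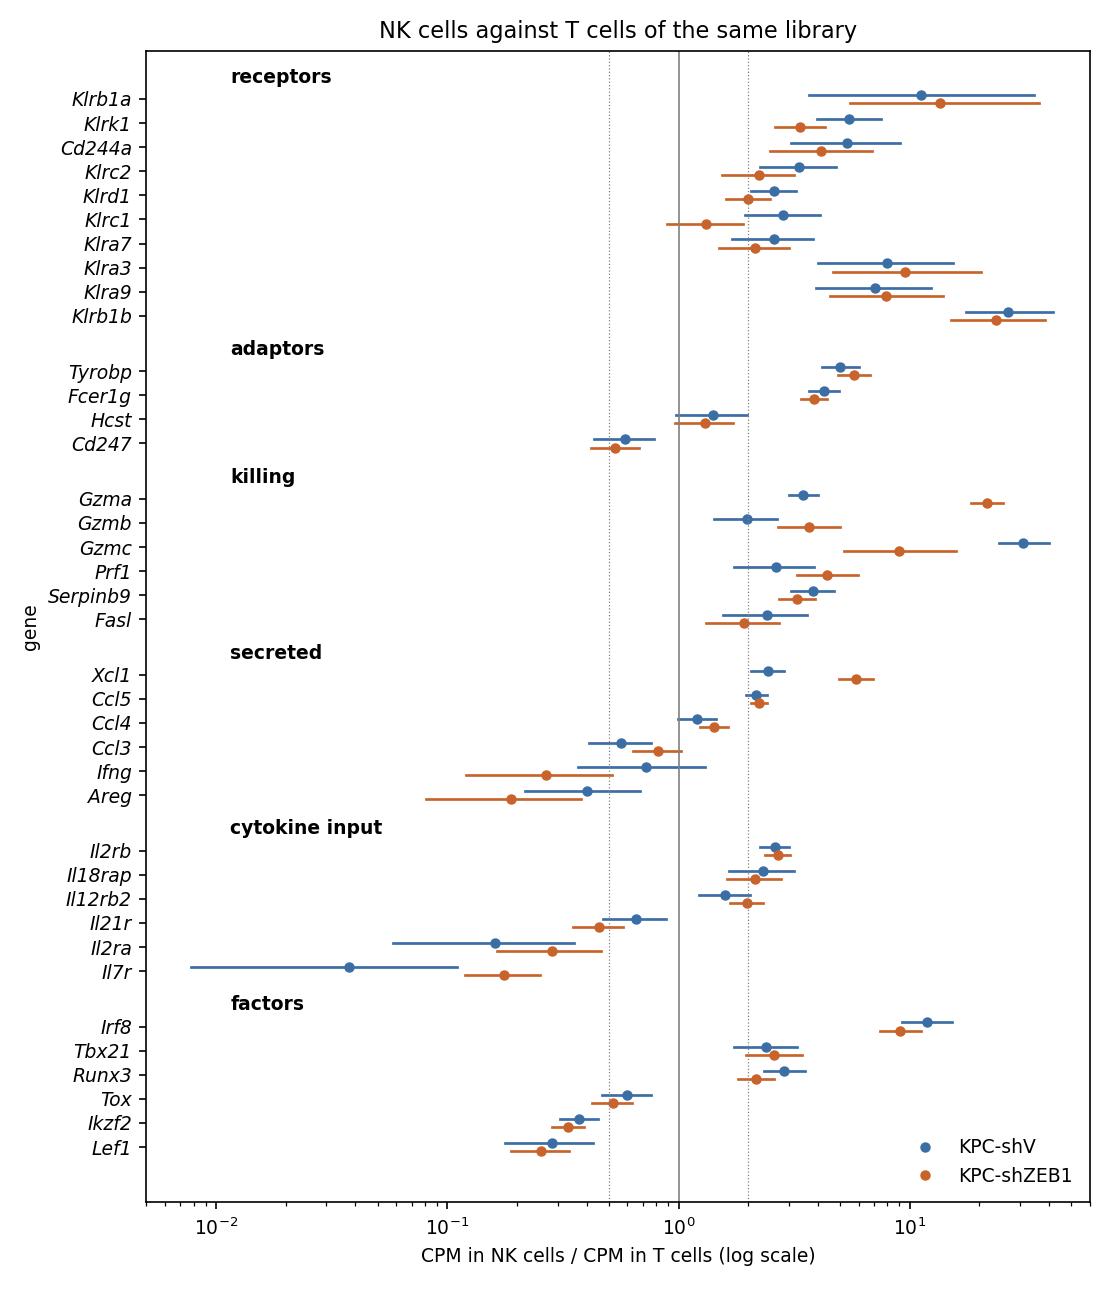
Ratio of the level in NK cells to that in T cells of the same library (log scale) for genes of the NK lists, points with exact 95% intervals, coloured by library. Klrb1b, Irf8 and Gzma lie to the right of 1 in both libraries, and Il7r, Lef1 and Ikzf2 to the left.

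Receptors of cytokines set NK cells apart from T cells in both directions, with 2 of 25 genes called higher and 4 lower and median log2 ratios of -0.13 and 0.07. Il2rb, the chain through which interleukin 15 and 2 act on NK cells, was in every NK cell of both libraries, at 1541 against 591 CPM in KPC-shV and 1273 against 474 CPM in KPC-shZEB1, with ratios of 2.61 (2.25 to 3.01) and 2.69 (2.37 to 3.04). Il18rap, a chain of the interleukin 18 receptor, had ratios of 2.31 (1.66 to 3.17) and 2.13 (1.62 to 2.79). The interleukin 7 receptor gene Il7r had ratios of 0.0377 (0.00776 to 0.111) and 0.176 (0.119 to 0.252), and the high-affinity interleukin 2 chain Il2ra 0.16 (0.0585 to 0.352) and 0.284 (0.164 to 0.461). Both were below T cells, as was the signal transducer Stat5b, at 0.314 (0.196 to 0.479) and 0.433 (0.327 to 0.564). Il7r was in 2 of 24 and 13 of 45 NK cells.

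Transcription factors gave 3 genes called higher of 29 and 5 lower, with median log2 ratios of -0.30 and -0.36. Irf8, a factor of NK and myeloid development, had 0, 3.5 and 17 UMIs per NK cell (lowest, median and highest) in KPC-shV and 0, 5 and 17 in KPC-shZEB1. Its level was 888 against 74.5 CPM in KPC-shV and 835 against 91.6 CPM in KPC-shZEB1, with ratios of 11.9 (9.3 to 15.3) and 9.11 (7.43 to 11.2). The ratios were 2.4 (1.73 to 3.27) and 2.6 (1.95 to 3.43) for Tbx21 (T-bet) and 2.87 (2.33 to 3.51) and 2.17 (1.81 to 2.59) for Runx3. Lower, with their ratios, were the T cell factors Lef1, 0.283 (0.178 to 0.427) and 0.255 (0.189 to 0.337), Ikzf2 (Helios), 0.371 (0.306 to 0.446) and 0.334 (0.283 to 0.39), Maf, 0.138 (0.0444 to 0.324) and 0.232 (0.119 to 0.411), and Irf4 and Tox2, of which NK cells held 5 and 0 UMIs in all. Eya1, a phosphatase and transcription cofactor among the genes with the largest ratios, had 42 and 40 UMIs in 13 of 24 and 19 of 45 NK cells and none in T cells, ratios of at least 157 and at least 84.9.

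Of 24 homing genes 3 were called higher, namely the chemokine receptor Ccr2 and the integrins Itgb1 and Itga2, and 3 lower, Ccr7, Cx3cr1 and S1pr1. The ratios were 2.26 (1.56 to 3.19) and 3.44 (2.52 to 4.67) for Ccr2, 3.62 (2.81 to 4.62) and 2.82 (2.35 to 3.38) for Itgb1 and 5.5 (3.23 to 9.13) and 14.2 (9.38 to 22.0) for Itga2. S1pr1, the receptor for exit from tissue to blood, had 3 and 9 UMIs in NK cells and ratios of 0.303 (0.0616 to 0.91) and 0.292 (0.132 to 0.567). Cd69, which holds lymphocytes in tissue, was at 157 against 338 CPM in KPC-shV and 141 against 193 CPM in KPC-shZEB1, below T cells in both.

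The genes far below T cells were Themis, Cd6, Bcl11b, Fam169b, Penk, Ramp3, Tnfrsf4, Cd5, Gm8369 and Cd4. NK cells held 0 to 3 UMIs of each in either library. Themis, a signalling protein of T cell selection, had 0 and 2 UMIs in NK cells against 462 and 566 CPM in T cells, and Bcl11b, a T lineage factor, 0 and 2 UMIs against 269.5 and 257 CPM. Of 18 cell cycle genes and 17 metabolic genes 0 were called either way, beside 1.51% of all genes called higher and 2.66% lower, so that calls in lists of this length would be few in any case. Of 17 interferon-induced genes 3 were called lower, among them Igtp and Ly6a, and of 16 stress genes 1 (Hspa1b).

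Genes of circulating NK cells and of ILC1 gave unlike counts. Of 18 genes typical of circulating NK cells 9 were called higher than in T cells (Itga2, Klra4, Klra8, Klra9, Klra7, Klra3, Irf8, Prf1 and Gzma) and 3 lower (Cx3cr1, S1pr1 and Ly6c2), with median log2 ratios of 0.66 and 1.54. Of 19 genes typical of ILC1 1 was called higher (Gzmc) and 4 lower (Il7r, Il2ra, Ikzf2 and Inpp4b), with medians of -0.60 and -0.42. Over all 7934 genes 1.51% were called higher and 2.66% lower. Itga2, Klra4 and Klra8 were already known as markers from these data, and Gzmc was the gene chosen to split the cells. T cells were the only reference, so these counts do not part NK cells from ILC1. Cell by cell, Itga1 and Itga2 were found together in 1 of 24 and 3 of 45 NK cells, Itga1 alone in 9 and 8, and Itga2 alone in 12 and 23. Cells with Itga1 and none of Eomes, Itga2, Klra4 and Klra8 numbered 6 of 24 (25%, 9.77 to 46.7) and 6 of 45 (13.3%, 5.05 to 26.8). In sparse counts a missing UMI does not show a missing transcript, and Itga1 was also in 24.6% and 20.4% of T cells and in 2.47% and 1.62% of neutrophils.

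Granzyme C marked a small number of NK cells with very high counts. Gzmc was in 5 of 24 NK cells (20.8%, 7.13 to 42.2) of the library labelled KPC-shV and in 3 of 45 NK cells (6.67%, 1.40 to 18.3) under the label KPC-shZEB1. The 5 cells held 136, 57, 27, 22 and 4 UMIs, and the 3 cells held 32, 1 and 1. Summed, the level was 1607 against 120 CPM, a ratio of 0.0748 (0.0507 to 0.107), and 55.3% and 94.1% of the UMIs came from 1 cell each. In each library a few cells therefore set the level. Without cells of a Scrublet doublet score above 0.2, the log2 ratio of Gzmc between libraries was -6.54 in place of -3.63, as 2 cells with 1 UMI each were then left under the label KPC-shZEB1. With T cell receptor constant regions required to be 0, 4 and 5 NK cells were left and the log2 ratio was 2.41.

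Other cells give the background of Gzmc. It was in 2.14% and 4.44% of T cells, 1.36% and 1.5% of B cells and 0.652% and 0.674% of neutrophils, which have median depths of 3341 and 3037 UMIs. The T cell share of the library labelled KPC-shZEB1 lies within the interval of its NK share. With each cell thinned to 1000 UMIs the NK shares were 16.7% and 2.22%, and the T cell shares 0.714% and 1.18%. In the wider gate Gzmc was in 8 of 41 NK cells (19.5%) and 14 of 127 (11.0%), with 136, 102, 57, 27, 22, 4, 4 and 1 UMIs and with 96, 82, 44, 32, 14, 13, 7, 7 and 6 UMIs beside 5 cells with 1. There the library ratio of Gzmc was 0.306 in place of 0.0748, a move of over 1.5 times.

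NK cells with and without Gzmc were described next, the split being made on the same cells. The cells with Gzmc were deeper, with medians of 9070 against 5432 UMIs and 12090 against 5437 UMIs, and 1 UMI was 21.4 and 28.4 CPM in the cells with Gzmc. In the library labelled KPC-shV, Eomes was in 0 of 5 cells with Gzmc and 10 of 19 without, Klra4 or Klra8 in 0 of 5 and 11 of 19, Itga1 in 4 of 5 and 6 of 19, Cxcr6 (a chemokine receptor of tissue-resident lymphocytes) in 4 of 5 and 1 of 19, Xcl1 in 5 of 5 and 11 of 19, and Gzma in 1 of 5 and 13 of 19. Under the label KPC-shZEB1 the cell with 32 UMIs had Itga1 and Cxcr6 and no Eomes, Klra4 or Klra8, and both cells with 1 UMI had Eomes, Itga2 and Klra4. That cell with 32 Gzmc UMIs was the deepest NK cell, at 17743 UMIs, and was marked by Scrublet as a possible doublet. The wider gate held 6 cells with a single Gzmc UMI, of which 4 had Eomes and Itga2 and 2, of 10591 and 5370 UMIs, had none of Eomes, Itga2, Klra4 and Klra8. The cell with 136 UMIs of Gzmc had Itga2 and no Itga1. The cells with many Gzmc UMIs and those with 1 were therefore not cleanly parted by these genes. Trbc2, of the T cell receptor beta chain, was in 4 of 5 cells with Gzmc and 4 of 19 without in KPC-shV. In KPC-shZEB1 it was in 2 of 3 and 16 of 42, with 4 UMIs in the cell with 32 Gzmc UMIs. The wider gate gave 4 of 8 and 11 of 33 in KPC-shV, and 6 of 14 and 41 of 113 in KPC-shZEB1. With T cell receptor constant regions required to be 0, no cell with Gzmc was left in KPC-shV.

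Of 1831 genes with at least 50 UMIs, 23 (1.26%) were at least 2-fold higher in cells with Gzmc in both libraries and 97 (5.3%) lower. The median log2 ratio of all genes was -0.17 and -0.13, and changes are to be read relative to it. The genes with the largest ratios were S100a4, Odc1, Kit, Rora, Pkp4, Ikzf2, Itgb3, Irs2, Thbs1, Itgav, Calm3 and Tmem176a. Irs2 turned to a log2 ratio of -1.11 with at least 3 NK marker UMIs and -1.03 without the cells that Scrublet marked. Thbs1 had 2 UMIs with Gzmc against 1 without in KPC-shV, and its ratio there was 0.524 in the wider gate. In KPC-shZEB1 the UMIs of S100a4 and Irs2 in cells with Gzmc came from 1 cell. S100a4, a calcium-binding protein of motile cells, was at 707 against 37.6 CPM in KPC-shV and 426 against 88.9 CPM in KPC-shZEB1, summed ratio 7.99 (4.86 to 13.4). Rora, a nuclear receptor of innate lymphoid cells, was at 1436 against 159.7 CPM in KPC-shV and 1080.2 against 347 CPM in KPC-shZEB1, summed ratio 4.41 (3.33 to 5.84). Kit, the stem cell factor receptor, was at 129 against 28.2 CPM in KPC-shV and 426 against 105 CPM in KPC-shZEB1, summed ratio 3.13 (1.7 to 5.69). Ikzf2 was 2.95 (2.31 to 3.77) and Tmem176a 3.84 (2.12 to 6.92). In the wider gate the ratios in KPC-shV and KPC-shZEB1 were 0.909 (0.289 to 2.48) and 1.48 (0.961 to 2.23) for Kit. They were 1.75 and 1.51 for Ikzf2 and 2.90 and 2.18 for Tmem176a.

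The lower genes included Klra8, Klra9, Myb, Scml4, Rundc3b, Klri2, Ccl5 and Prim2. Ccl5 was at 0 against 4125 CPM in KPC-shV and 483 against 3288 CPM in KPC-shZEB1, summed ratio 0.0587 (0.0341 to 0.0943), with UMIs in 0 of 5 and 17 of 19 in KPC-shV, 3 of 3 and 38 of 42 in KPC-shZEB1. Prf1 had a summed ratio of 0.165 (0.0441 to 0.435). Klra8 and Klra9 had no UMI in any of the 8 cells with Gzmc, at most 0.0895 and at most 0.245 of the level in the other NK cells. Of the 8 ILC1 genes compared 3 were called higher (Tmem176a, Ikzf2 and Kit) and none lower. Of these 3 only Tmem176a stayed past 2-fold in both libraries in the wider gate. Of 13 genes of circulating NK cells 4 were called lower, among them Klra8, Klra9 and Prf1, and none higher. Over all 1831 genes 1.26% were called higher and 5.3% lower. The medians were 0.77 and 1.44 for the ILC1 genes and -2.51 and -0.64 for those of circulating NK cells. With 8 cells, of which 2 had 1 Gzmc UMI, these folds rest on few cells.

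**Figure D4:**
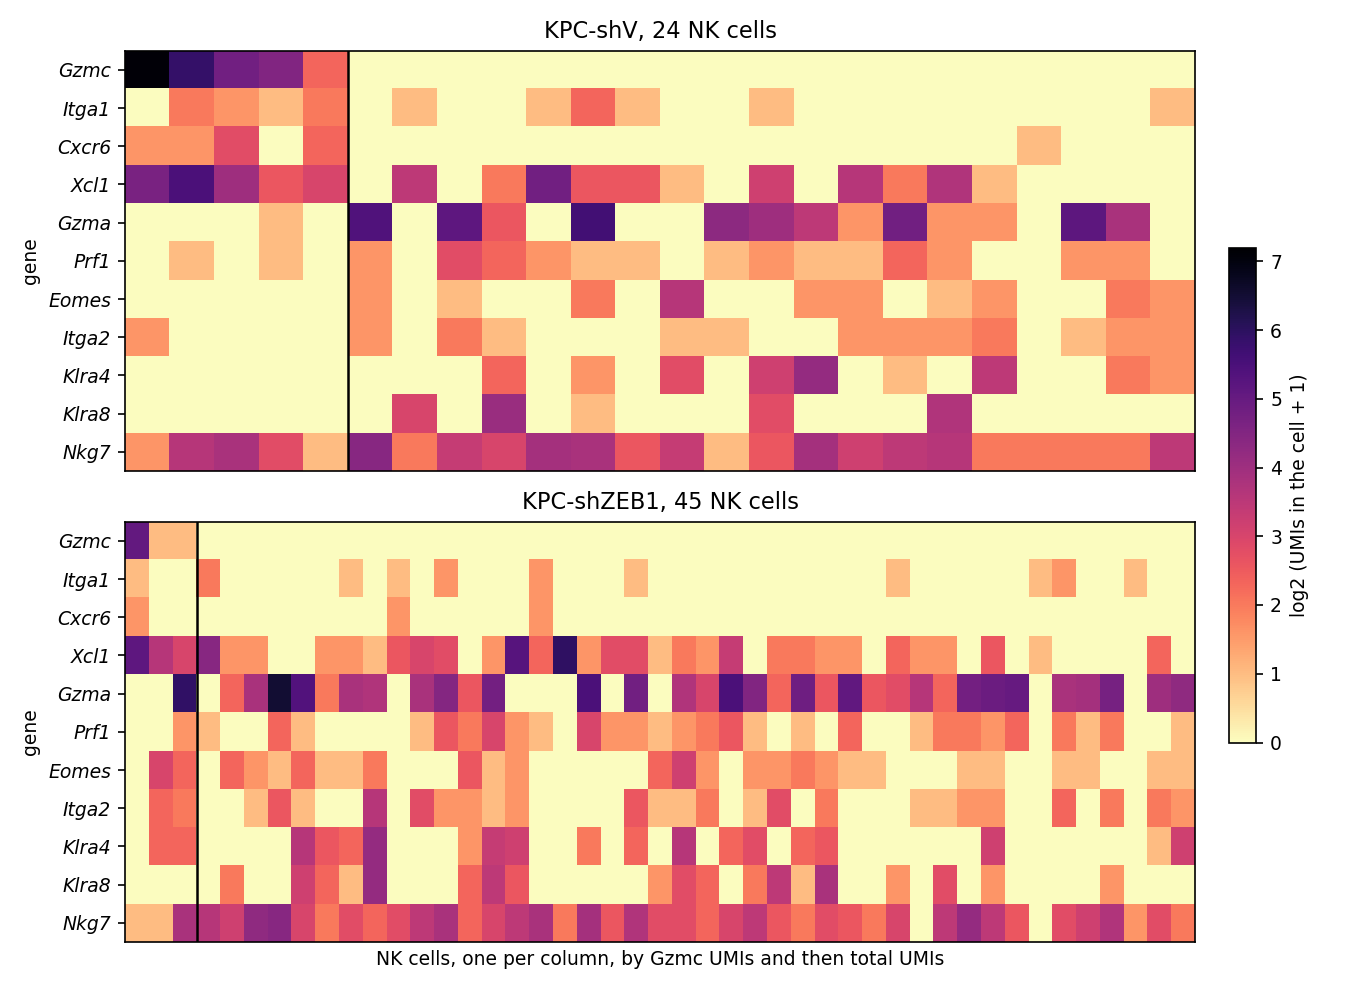
UMIs of selected genes (rows, colour as log2 of UMIs plus 1) in each NK cell (columns) of the libraries labelled KPC-shV (24 cells) and KPC-shZEB1 (45 cells), ordered by Gzmc UMIs, with a line between cells with and without Gzmc. The 5 cells with Gzmc at the left of the first panel lack Eomes, Klra4 and Klra8, which are spread over the cells to the right.

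Between the libraries 47 of 1832 genes (2.57%) were at least 2-fold higher in NK cells of the library labelled KPC-shZEB1 and 14 (0.764%) lower, with a median log2 ratio of 0.00 over all genes. With so few genes called, few calls would fall in any short list. None of the 6 NK markers, 12 activating receptor genes, 6 inhibitory receptor genes, 7 secreted factors and 15 cytokine receptor genes compared was called, and of 11 cytolytic genes 1 was, Gzmc. Of 24 transcription factors 1 was called, Myb, at 2.95 (1.54 to 6.23), and of 15 homing genes 3, among them Itgam. Ncr1 stood at a ratio of 0.718 (0.488 to 1.06), Klra4 at 1.21 (0.865 to 1.7), Prf1 at 1.25 (0.819 to 1.94), Nkg7 at 0.971 (0.808 to 1.17) and Ccl5 at 1.02 (0.912 to 1.15).

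Among the 12 highest genes H2-Ab1, H2-Aa, Cd74, Apoe and Lyz2 were past 2-fold in T cells too, whereas Thbs1, the highest, and Itgam and Kpna3 had T cell ratios of 1.34, 0.885 and 1.03. H2-Ab1, a class II histocompatibility chain, had 9 UMIs (58.8 CPM) and 115 UMIs (407 CPM), a ratio of 6.92 (3.52 to 15.5), against 3.69 in T cells. Cd74, the class II invariant chain, stood at 4.77 (3.32 to 7.07) against 3.49, Apoe at 3.8 (2.78 to 5.32) against 3.49, and Lyz2, a lysozyme of myeloid cells, at 3.51 (2.48 to 5.07) against 2.17. B cells were 2.52% and 9.13% and macrophages 6.04% and 10.5% of kept cells, in the same direction as these genes, and their part in the NK values was not tested. S100a8, a neutrophil gene, was lower, 0.396 (0.239 to 0.65) in NK cells and 0.53 in T cells, as neutrophils were.

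A few genes differed in NK cells and less so in T cells. Itgam (CD11b, an integrin gained as NK cells mature) had 4 UMIs (26.1 CPM) and 46 UMIs (163 CPM), a ratio of 6.23 (2.27 to 23.8), in 4 of 24 and 20 of 45 cells, against 0.885 in T cells, and 1.69 in the wider gate. Thbs1 (thrombospondin 1) had 3 UMIs (19.6 CPM) and 62 UMIs (219 CPM), a ratio of 11.2 (3.66 to 55.7), against 1.34 in T cells, and 0.998 in the wider gate. Kpna3, an importin, had 5 UMIs (32.7 CPM) and 46 UMIs (163 CPM), a ratio of 4.98 (1.99 to 16.1), against 1.03 in T cells and 1.4 in the wider gate. All 3 fell below 2-fold once the wider gate was used.

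The lower genes included Gzmc, Ap3s1, Ankib1, Taf1, S100a8 and Atp2a2. Ap3s1, a subunit of a vesicle adaptor complex, had 33 UMIs (216 CPM) and 18 UMIs (63.7 CPM), a ratio of 0.295 (0.157 to 0.54), in 14 of 24 and 13 of 45 cells, against 0.978 in T cells and 0.606 in the wider gate. Of the 61 genes called either way, 18 (29.5%) were also called in the wider gate, which called 135 (13.3% shared), and 27 (44.3%) when the ratio was taken relative to that of T cells, which also called 61. Most of the calls between libraries were therefore not repeated with the other gate or with the T cell reference.

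**Figure D5:**
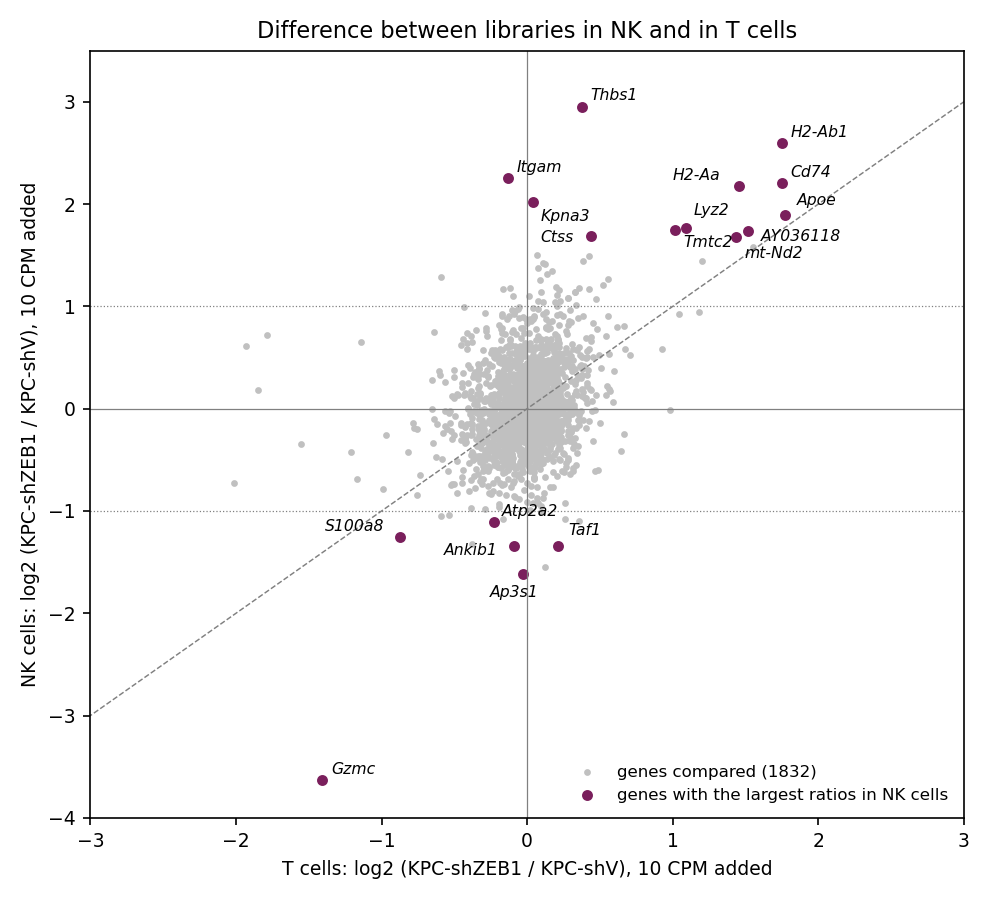
Log2 ratio between the libraries (KPC-shZEB1 over KPC-shV by label, 10 CPM added) in NK cells (vertical) against T cells (horizontal) for 1832 genes, with genes of the largest ratios in NK cells named. H2-Ab1, Cd74, Apoe and Lyz2 are higher in both classes, Itgam, Thbs1 and Kpna3 are higher mainly in NK cells, and Gzmc is lowest.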

How the data were processed

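Single-cell RNA libraries (10x Chromium 3′) of 1 tumour per group were used. The deposited files hold raw counts (UMIs per gene and barcode), made by the authors with Cell Ranger 7.0.1 on mm10, per the labels and file headers, before the study's filters. Strand and intron settings are not given in the sources used here. From these counts the filters of the study's methods were applied, without its doublet removal. Scrublet scored 315 (2.69%) and 343 (2.76%) kept cells above 0.2, 1 and 3 of them NK cells, and these were kept in the main values. UMIs were summed per class and library and divided by the class total (CPM). Genes were called at 2-fold on log2 of CPM plus 10, with no test, as cells are not replicates. Genes were named by list (at least 20 UMIs in NK cells) or by the size of the ratio. Some of the less abundant list genes were named after their values were seen. A few genes are not reported here. Ratios and shares have exact 95% intervals (conditional and Clopper-Pearson). Against 0 counts a floor of 3 counts per library gave bounds. Gene identifiers matched GENCODE vM21 for 32158 of 32285 genes. The scripts were tested on simulated counts. Members and lists were chosen with earlier results of these data known. Python 3.11.15, numpy 2.4.6, scipy 1.17.1 and scanpy 1.11.5 were used. Alternatives covered the NK gate, T cell receptor genes, doublets, UMI and mitochondrial limits, count minimum, pseudocount, comparator, Gzmc cut and the deepest cells.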

Additional observations from a re-analysis of the deposited data

Results flagged for a closer look

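Some ratios had opposite directions in the libraries, with exact intervals that do not include 1 on either side of it. The difference itself was not tested, since each library is 1 tumour. Relative to T cells, Il18r1, a chain of the interleukin 18 receptor, was at 0.598 under the label KPC-shV and at 1.29 under the label KPC-shZEB1, and Fos, an immediate early factor, at 0.608 and 1.33. In NK cells with Gzmc relative to those without, Klrd1 (CD94) was at 2.02 and 0.460, the chemokine Ccl4 at 0.293 and 1.60, the factor Tox at 0.503 and 1.96, the factor Zeb2 at 0.175 and 1.88, and the chromatin protein Hmgb2 at 2.62 and 0.376. The cells with Gzmc number 5 and 3, and 2 of the 3 had 1 Gzmc UMI. In the wider gate Klrd1 was at 1.21 and 0.767, Ccl4 at 0.450 and 0.804 and Tox at 0.630 and 1.07. Zeb2 was there at 0.249 and 1.10 and Hmgb2 at 2.20 and 1.56. None of these genes of the Gzmc split had intervals on opposite sides of 1 in the wider gate.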

How the results depend on the processing

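No paired analysis was possible because each group has 1 sample. The ratio of NK shares of kept cells or of non-neutrophils lay between 1.18 and 2.91 over the alternatives. The ratio of Gzmc shares lay between 0.107 and 0.565 over those that gave a value. With T cell receptor constant regions required to be 0 it had no value, as no NK cell under the label KPC-shV then had Gzmc. The Gzmc level between libraries had the other direction there, at a log2 ratio of 2.41. Taken among NK and T cells alone, the ratio of NK shares was 1.49 in the main gate and 1.04 (0.728 to 1.52) in the wider gate. With T cell receptor constant regions required to be 0, 4 and 5 NK cells were left, 2092 genes passed 2-fold against T cells and 11 between libraries, and the Gzmc split could not be fitted. Genes past 2-fold against T cells numbered 331 in the main setting, 180 at a minimum of 200 UMIs, 518 with 1 CPM added and 216 against CD8 T cells. For the Gzmc split the main count of 120 became 310 at 20 UMIs, 15 at 200 UMIs and 189 with at least 2 Gzmc UMIs. Between libraries the main 61 became 115 with 1 NK marker UMI, 135 in the wider gate, 272 at 20 UMIs and 6 at 200 UMIs. The wider gate and the ratio relative to T cells were chosen after seeing the data. Of the named genes' values, 1 of 350, 3 of 240 and 4 of 270 reversed in the 3 comparisons. These were, as log2 ratios, Irs2 in the Gzmc split at -1.11 with 3 marker UMIs and -1.03 without Scrublet-marked cells, Gzmc against T cells at -0.72 and Ctss and Gzmc between libraries at -0.39 and 2.41 with the receptor genes at 0, Thbs1 at -0.0116 (split) and -0.00212 (libraries) in the wider gate, and Tmtc2 between libraries at -0.0413 without the 3 deepest NK cells of each library. With 24 and 45 cells, a gene under about 20 UMIs has wide counting intervals.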
